A study of Rattus norvegicus with 22 samples.

Results

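Genes of endothelial adhesion and of the endothelial surface were described in ventral tissue of the cervical spinal cord from rats of both sexes, with and without gonads. The members were chosen from a list of 10 gene symbols, each matched to the symbol in the row names of the authors' count table, and 9 of the 10 had a row among 32883 rows. These were Cdh5 (ENSRNOG00000013324), Esam (ENSRNOG00000033217), Jcad (ENSRNOG00000027938), Tek (ENSRNOG00000008587), Tie1 (ENSRNOG00000020173), Eng (ENSRNOG00000050190), Cd93 (ENSRNOG00000024799), Clec14a (ENSRNOG00000022697) and Stab1 (ENSRNOG00000018434). Pecam1 was not analysed here. Young adult Sprague-Dawley rats were used, namely 5 intact males, 5 gonadectomized (GDX) males, 6 intact females and 6 ovariectomized (OVX) females. The gonads had been removed a fortnight before tissue was taken, and the intact rats of the same age were not operated on as far as described. After perfusion with saline the ventral part of segments C3 to C6 was kept, and 1 library per rat held between 12371756 and 17571887 counts. Rats are named here by group and number, and no link between rats of different groups with the same number is described.

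The proteins of these genes sit at the contacts or on the surface of cells that line blood vessels. Cadherin-5, the product of Cdh5, joins neighbouring endothelial cells, and the Jcad protein lies at the same junctions on their inner side. Tek is the receptor of the angiopoietins and Tie1 its partner, while Eng is a co-receptor of ligands of the transforming growth factor family. Cd93 and Clec14a belong to a small family of lectin-like proteins that bind multimerin-2, and Stab1 is a scavenger receptor that some macrophages also carry.

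The members had been grouped by their known place on endothelial cells while earlier results of both gonadectomy comparisons were in view, among them Cdh5 after GDX and Cd93 after OVX. Values of these 2 comparisons, and of the interaction made from them, are therefore given as description. Calls are counted, but no p-value is printed for them and nothing is read from their number. The libraries also differed in a way that cannot be fully told apart from surgery. The study's methods list an average input fragment size for each library, and these sizes fall into a shorter and a longer set, called fragment classes here. All 7 libraries of the longer class came from intact rats, 3 of 5 males and 4 of 6 females, and every GDX and OVX library was in the shorter class. Only 2 intact males (numbers 2 and 5) and 2 intact females shared the class of the operated rats.

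Levels are CPM, counts scaled to a common library total, with the totals adjusted by the trimmed mean of M-values (TMM) so that most genes keep the same level across rats. They were not scaled by gene length, so levels of different genes were not compared, and the gene of a list named as having the highest CPM is that with the most counts. A log2 fold change is the log2 ratio of fitted group levels from edgeR and is given with its standard error (SE). An adjusted p is the p-value after Benjamini-Hochberg adjustment over all genes tested, and a gene is called where it is under 0.1. Raw counts of the members ran from 33 for Clec14a in its lowest library to 1657 for Jcad in its highest.

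Cdh5 stood at 9.58, 9.67, 10.4, 8.73 and 6.83 CPM in intact males 1, 2, 3, 5 and 6, and its lowest, median and highest values in GDX males were 17.8, 19.8 and 30.1. Every GDX male lay above every intact male, with GDX male 5 far above the other GDX males. In intact females Cdh5 had a lowest, median and highest value of 12.2, 20.1 and 24.8 CPM, and in OVX females of 16.7, 24.7 and 30.4. Intact females thus lay above all intact males and overlapped with OVX females, with intact female 2 lowest and OVX female 1 highest. The log2 fold change of Cdh5 was 1.23 (SE 0.15) in GDX against intact males and 0.33 (SE 0.15) in OVX against intact females. By fragment class mean Cdh5 was 9.20 CPM in shorter and 8.94 in longer libraries of intact males, and 19.4 and 19.9 in those of intact females.

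Jcad measured 54.8, 57.8, 53.4, 59.1 and 48.8 CPM in intact males 1, 2, 3, 5 and 6, and 71.4, 83.3, 89.1, 102 and 83.5 in GDX males 1, 2, 4, 5 and 6. The ranges of the 2 male groups did not overlap, and GDX male 5 was again highest. The lowest, median and highest Jcad values were 58.9, 75.9 and 89.0 CPM in intact females and 80.4, 91.6 and 97.6 in OVX females. Intact female 2 was the only intact female that did not lie above every intact male. For Jcad the log2 fold change after gonadectomy was 0.64 (SE 0.08) in males and 0.26 (SE 0.09) in females. Esam ranged from 4.02 to 5.38 CPM in intact and 6.12 to 8.38 in GDX males, and from 2.46 to 6.60 in intact and 5.63 to 9.52 in OVX females. For Esam the male groups did not overlap, the female groups did, and the lowest value of all 22 rats was that of intact female 4. Its log2 fold change was 0.59 (SE 0.13) in males and 0.65 (SE 0.20) in females.

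**Figure D1:**
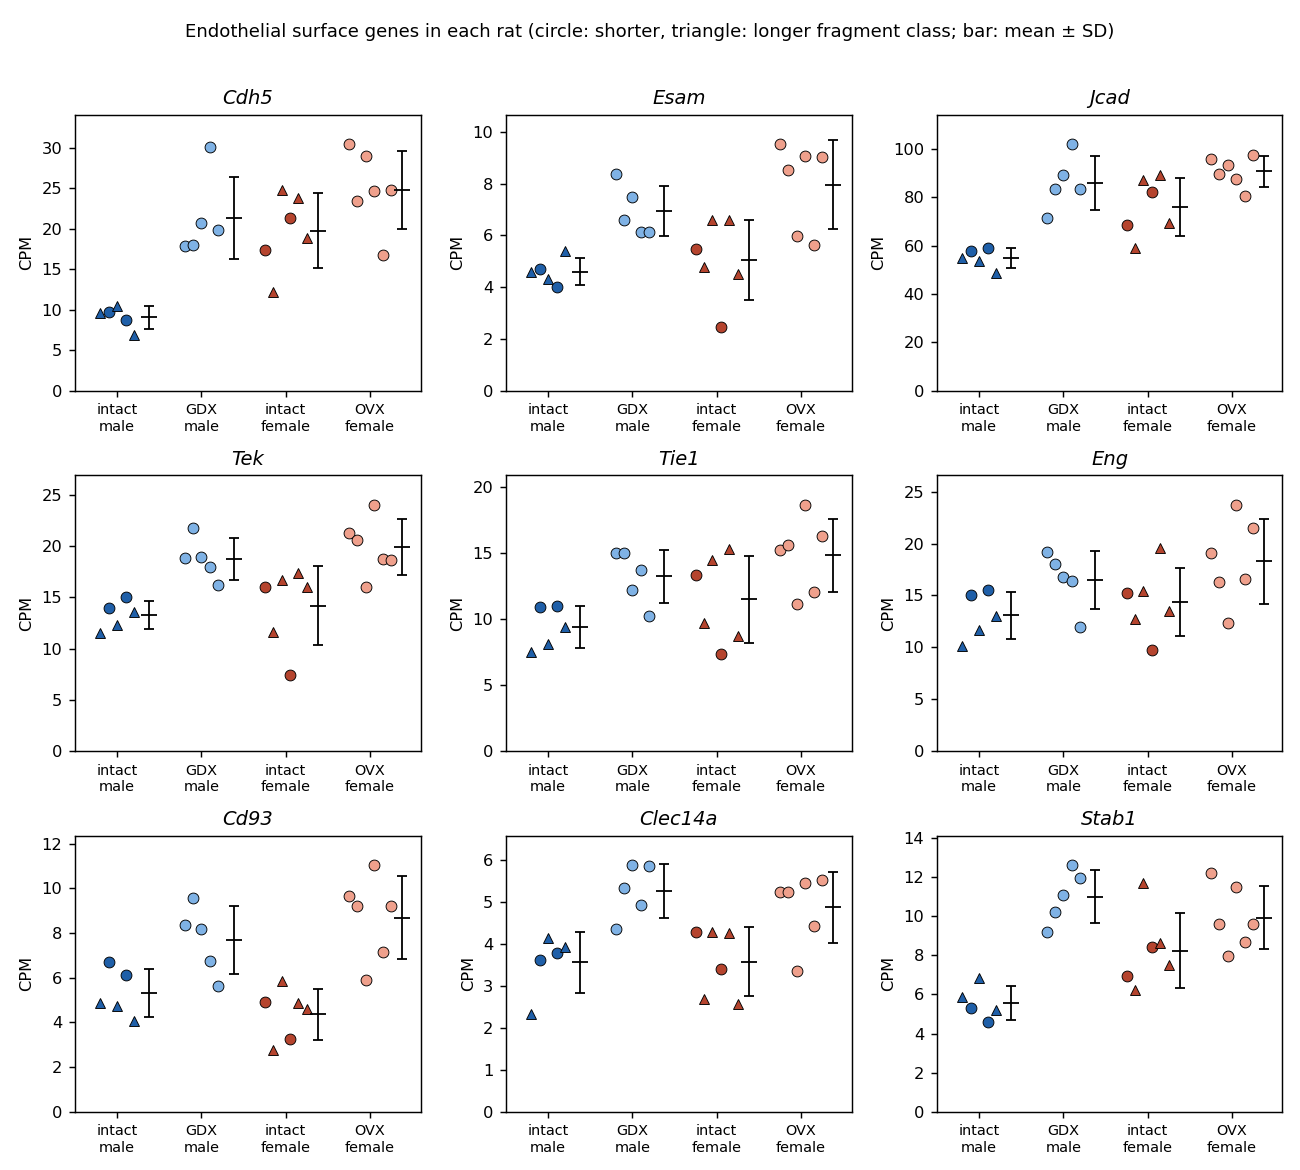
Levels of the 9 members in CPM, with 1 point per rat, circles for the shorter and triangles for the longer fragment class, and bars at the mean with its SD. Mean Cdh5 was 9.04 CPM in intact and 21.3 in GDX males, and 19.7 in intact and 24.8 in OVX females.

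Promoter sequences of Tie1, Eng and Clec14a are shown because these 3 members, of the 5 whose promoters could be read, hold the same run of 8 bases, AGGAAATG or its reverse complement CATTTCCT. This run contains GGAA, the core bound by ETS factors. Each sequence covers 250 bases before and 50 bases after the start of the gene in build GRCr8, read along the gene, at chr5:137304932-137305231 (minus strand) for Tie1, chr3:36332029-36332328 (plus strand) for Eng and chr6:81619507-81619806 (minus strand) for Clec14a. Capitals mark the run and the shorter AGGAA or TTCCT.

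Tie1: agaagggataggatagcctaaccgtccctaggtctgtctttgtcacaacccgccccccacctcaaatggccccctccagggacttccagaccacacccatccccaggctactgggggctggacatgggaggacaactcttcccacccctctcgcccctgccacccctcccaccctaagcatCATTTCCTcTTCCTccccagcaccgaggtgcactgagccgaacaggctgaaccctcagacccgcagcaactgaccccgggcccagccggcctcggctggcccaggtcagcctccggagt

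Eng: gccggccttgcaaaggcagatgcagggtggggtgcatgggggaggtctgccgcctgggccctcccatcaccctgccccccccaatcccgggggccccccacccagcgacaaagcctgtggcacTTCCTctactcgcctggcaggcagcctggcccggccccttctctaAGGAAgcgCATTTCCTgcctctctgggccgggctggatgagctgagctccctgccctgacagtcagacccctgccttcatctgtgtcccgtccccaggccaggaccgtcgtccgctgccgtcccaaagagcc

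Clec14a: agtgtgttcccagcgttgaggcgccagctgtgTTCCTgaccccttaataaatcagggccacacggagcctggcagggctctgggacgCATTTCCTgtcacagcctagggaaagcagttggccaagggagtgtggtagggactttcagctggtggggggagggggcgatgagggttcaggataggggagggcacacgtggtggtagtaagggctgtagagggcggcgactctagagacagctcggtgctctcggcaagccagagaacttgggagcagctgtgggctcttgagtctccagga

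The run of 8 bases began 69 bases before the start in Tie1, 74 in Eng and 163 in Clec14a, and was absent from Jcad and Stab1. It occurred in 2.75% of the 33469 promoters of the reference. The shorter AGGAA or its reverse occurred in 4 of the 5 members, all but Jcad, and in 67.3% of the promoters. The longer run was picked after the sequences had been seen, overlaps the shorter, and nothing is drawn from it about binding.

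Tek read 11.6, 13.9, 12.3, 15.0 and 13.5 CPM in intact males 1, 2, 3, 5 and 6, and 18.8, 21.7, 18.9, 17.9 and 16.2 in GDX males 1, 2, 4, 5 and 6. All GDX males lay above all intact males. Its lowest, median and highest values were 7.47, 16.0 and 17.4 CPM in intact females and 16.0, 19.7 and 24.0 in OVX females. Intact female 4 was far below the other intact females for Tek, and OVX female 3 was the lowest of its group and overlapped with the intact range. The log2 fold change of Tek was 0.49 in both sexes, with an SE of 0.09 in males and 0.15 in females.

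Tie1 came to 7.54, 10.9, 8.15, 11.02 and 9.39 CPM in intact males 1, 2, 3, 5 and 6, and to 15.0, 15.0, 12.2, 13.7 and 10.2 in GDX males 1, 2, 4, 5 and 6. Only GDX male 6 fell inside the intact male range. The female values overlapped widely, with a lowest, median and highest of 7.39, 11.6 and 15.3 CPM in intact and 11.1, 15.4 and 18.7 in OVX females. Intact female 4 was lowest and OVX female 4 highest. The log2 fold change of Tie1 was 0.49 (SE 0.13) in males and 0.36 (SE 0.17) in females. Eng spread from 10.1 to 15.5 CPM in intact and 11.9 to 19.2 in GDX males, and from 9.71 to 19.5 in intact and 12.4 to 23.7 in OVX females. All groups overlapped for Eng, whose log2 fold change was 0.33 (SE 0.13) in males and 0.35 (SE 0.15) in females.

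For these receptors the mean levels of the fragment classes were in opposite order in intact males and intact females. In intact males the shorter and longer classes averaged 10.97 and 8.36 CPM for Tie1, 15.3 and 11.6 for Eng, and 14.5 and 12.5 for Tek. Intact females had 10.4 and 12.1 for Tie1, 12.5 and 15.3 for Eng, and 11.7 and 15.4 for Tek, with intact female 4 among the 2 rats of the shorter class. Intact males 2 and 5, both of the shorter class, were the 2 highest intact males for Tek, Tie1, Eng and Cd93.

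Cd93 lay at 4.86, 6.71, 4.75, 6.13 and 4.07 CPM in intact males 1, 2, 3, 5 and 6, and at 8.38, 9.56, 8.17, 6.76 and 5.61 in GDX males 1, 2, 4, 5 and 6. GDX male 6 fell inside the intact male range, while GDX male 5 was only just above it. The lowest, median and highest Cd93 values were 2.76, 4.73 and 5.84 CPM in intact females and 5.90, 9.21 and 11.03 in OVX females. Intact female 3 and OVX female 3 marked the narrow gap between these groups, which did not overlap. The log2 fold change of Cd93 was 0.53 (SE 0.17) in males and 0.99 (SE 0.18) in females. Clec14a ran from 2.33 to 4.15 CPM in intact and 4.36 to 5.88 in GDX males, and from 2.56 to 4.29 in intact and 3.36 to 5.54 in OVX females. Its GDX values lay above all values of both intact groups, and its log2 fold change was 0.56 (SE 0.17) in males and 0.44 (SE 0.17) in females.

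Stab1 gave 5.85, 5.31, 6.87, 4.58 and 5.19 CPM in intact males 1, 2, 3, 5 and 6, and 9.19, 10.2, 11.1, 12.6 and 11.9 in GDX males 1, 2, 4, 5 and 6. No value was shared between the male groups. The lowest, median and highest were 6.22, 7.97 and 11.7 CPM in intact females and 7.99, 9.60 and 12.2 in OVX females. Intact female 3 was within the upper OVX range, and intact female 2 was the only intact female inside the range of the intact males. Stab1 had a log2 fold change of 0.98 (SE 0.13) in males and 0.28 (SE 0.14) in females.

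Across the groups, mean levels were lowest in intact males for 8 of 9 members, with Cd93 lowest in intact females instead. OVX females had the highest mean for 7 members, and GDX males for Stab1 and Clec14a. In GDX against intact males all 9 log2 fold changes were positive, with a median of 0.56 against 0.00 for all genes tested. Of the members, 8 of 9 were called higher, all but Eng, beside 6.78% of all genes (1012 of 14931). With each rat left out in turn, the call of Cd93 held in 5 of 10 fits and that of Clec14a in 7, while Eng was called in 1. Cdh5, Jcad, Stab1, Tek, Esam and Clec14a, or 6 of 9, were higher in every GDX than in every intact male, beside 3.76% of all genes (562). With the fragment class as a term in the fit 4 members were called, Cdh5, Stab1, Esam and Jcad, where 336 of 14931 genes were called higher. With shorter libraries only these were 3, Cdh5, Stab1 and Jcad, where 197 of 15553 genes were called higher. Under both settings the log2 fold changes of Tie1, Cd93, Eng and Tek were smaller, at 0.27, 0.26, 0.11 and 0.37. Those of Jcad, Clec14a and Cdh5 were also smaller, at 0.55, 0.51 and 1.21, while Stab1 and Esam were larger, at 1.15 and 0.67.

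In OVX against intact females the 9 log2 fold changes were again all positive, with a median of 0.36 against 0.00 for all genes. Cd93 was the only call, 1 of 9 beside 0.0268% of all genes (4 of 14910). It was also the only member higher in every OVX than in every intact female, beside 0.315% of all genes (47). No member was called with the fragment class as a term or among shorter libraries only, where the log2 fold change of Cd93 was 1.08 in both. Under both settings that of Esam was 0.98, that of Tek 0.74 and that of Eng 0.54, each larger than without them, while Clec14a was smaller at 0.34. DESeq2 called Esam beside Cd93, with 92 of 14910 genes called higher. The Cd93 call was lost in 7 of 12 fits that left a rat out, namely intact female 2, 4, 5 or 6 or OVX female 1, 2 or 6.

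**Figure D2:**
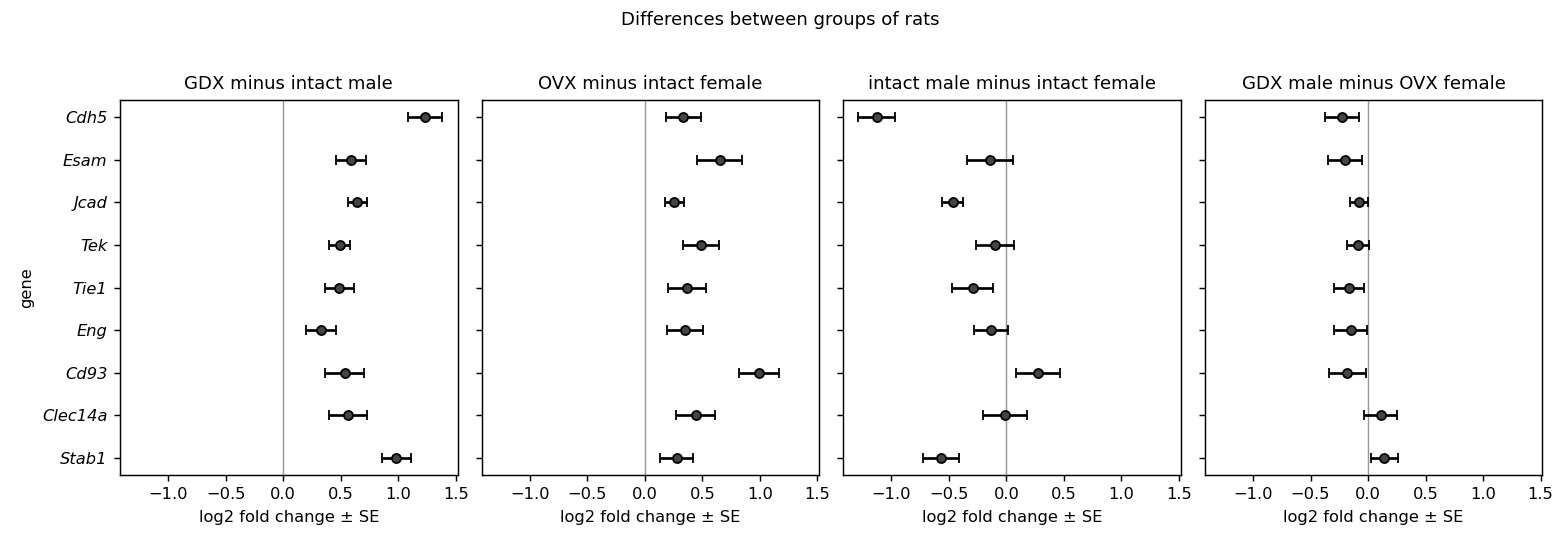
Log2 fold changes of the 9 members with their SE in 4 comparisons. Cdh5 stood at 1.23 in GDX against intact males, 0.33 in OVX against intact females and -1.13 in intact males against intact females.

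The interaction asks whether the log2 fold change after gonadectomy was larger in males than in females, so it is the difference of 2 values that were in view when the members were grouped, and it is description only. By edgeR 0 of 9 members were called, beside 0.116% of all genes (18 of 15562), while 3 members had an unadjusted p under 0.05, as did 1810 of all genes, and DESeq2 called 2 members and 243 genes. The value was 0.90 (SE 0.24) for Cdh5, 0.71 (SE 0.20) for Stab1 and 0.39 (SE 0.13) for Jcad. Cd93 had a value of -0.45 (SE 0.26), and the other 5 members lay between -0.06 and 0.13. Among shorter libraries only, Cd93 was at -0.81, Eng at -0.43, Tek at -0.38, Esam at -0.31 and Tie1 at -0.23, so that Tek and Tie1 changed direction.

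Intact males were compared with intact females, using the same intact rats that served as controls of the gonadectomy comparisons, so that its p-values are not independent of how the members were grouped. Cdh5 was lower in males, at -1.13 (SE 0.16, adjusted p 0.00181). Jcad followed at -0.47 (SE 0.09, adjusted p 0.0177) and Stab1 at -0.57 (SE 0.16, adjusted p 0.0754). These 3 of 9 members were called lower, beside 2.56% of all genes (383 of 14937). Only Cdh5 was lower in every male than in every female, 1 of 9 beside 1.51% of all genes (226). Tie1 was not called at -0.29 (SE 0.18, adjusted p 0.466), and Cd93 leaned the other way at 0.28 (SE 0.19, adjusted p 0.544). Esam, Eng, Tek and Clec14a lay between -0.14 and -0.01. Among shorter libraries only, with 2 rats per sex, Cdh5 was the only member called, at -1.07, beside 34 of 15130 genes. Tek, Tie1, Eng and Esam turned positive in these libraries, at 0.29, 0.0660, 0.28 and 0.12. Cd93 was at 0.64 there. The call of Stab1 held in 3 of 11 fits that left a rat out.

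GDX males were also compared with OVX females, which are the operated rats of the comparisons above. By edgeR 0 of 9 were called and 0 had an unadjusted p under 0.05, DESeq2 also called 0, and 0.232% of all genes were called (35 of 15084). Cdh5 had the smallest adjusted p, 0.683, at -0.23 (SE 0.15), and all values lay between this and 0.14, the value of Stab1. The ranges of the 2 groups overlapped for all 9 members. Few genes had ranges apart, with 0.782% of all genes (118) higher and 0.537% (81) lower in every GDX male than in every OVX female.

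Members were next compared with each other across rats within groups. Log2 CPM was centred on the mean of each group, so that differences between groups do not enter, and correlations were tested by 100000 permutations of rats within groups, with adjustment over the 36 pairs. The smallest p this can give is 1e-05, and p-values are those of Pearson r unless given as by rank. Tie1 and Eng varied most closely together (Pearson r 0.91, Spearman rho 0.89, p 1e-05, adjusted p 0.00027). Without the 2 rats farthest from the median of Tie1 r was 0.87, and it was 0.92 in the 15 shorter and 0.87 in the 7 longer libraries. Here and below the 2 farthest rats are those of the first gene named, so rats far out only for the second gene or a summed list stayed in. Tek and Tie1 had an r of 0.79 (rho 0.78, p 3e-05, adjusted p 0.00027), which was 0.72 without the 2 farthest rats and 0.87 and 0.62 in the classes.

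Cdh5 varied with Jcad at an r of 0.86 (rho 0.82, p 3e-05, adjusted p 0.00027), which was 0.81 without the 2 farthest rats, 0.83 in shorter and 0.93 in longer libraries. With Stab1 its r was 0.67 (rho 0.67, p 0.00277, adjusted p 0.00997), and 0.60, 0.56 and 0.88 in the same 3 subsets. Stab1 and Jcad reached 0.58 (p 0.0127, adjusted p 0.0380), with 0.51, 0.55 and 0.83, but by rank the adjusted p was 0.0817 (rho 0.50). By contrast Cdh5 and Tie1 had an r of 0.16 (rho 0.09, p 0.566, adjusted p 0.727), which was -0.02 without the 2 farthest rats, -0.08 in shorter and 0.48 in longer libraries. Cdh5 and Tek had an r of 0.05 (rho 0.10, p 0.860, adjusted p 0.897), and -0.11, -0.26 and 0.67 in the subsets. With the 6 members other than Jcad and Stab1, Cdh5 had r between -0.26 and -0.03 in the shorter libraries and between 0.41 (Esam) and 0.94 (Cd93) in the 7 longer, all from intact rats. The classes were not tested against each other. Of all 36 pairs 14 had an adjusted p under 0.05, and 12 by rank. Cdh5, Jcad and Stab1 were singled out after these values were seen. Their 3 pairs had r between 0.58 and 0.86, the 15 pairs among the other 6 members between 0.38 and 0.91, and the 18 pairs across between 0.01 and 0.46. Across pairs of Jcad had r from -0.40 to 0.07 in shorter and 0.55 to 0.90 in longer libraries, and those of Stab1 from -0.04 to 0.51 and from 0.35 to 0.88.

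**Figure D3:**
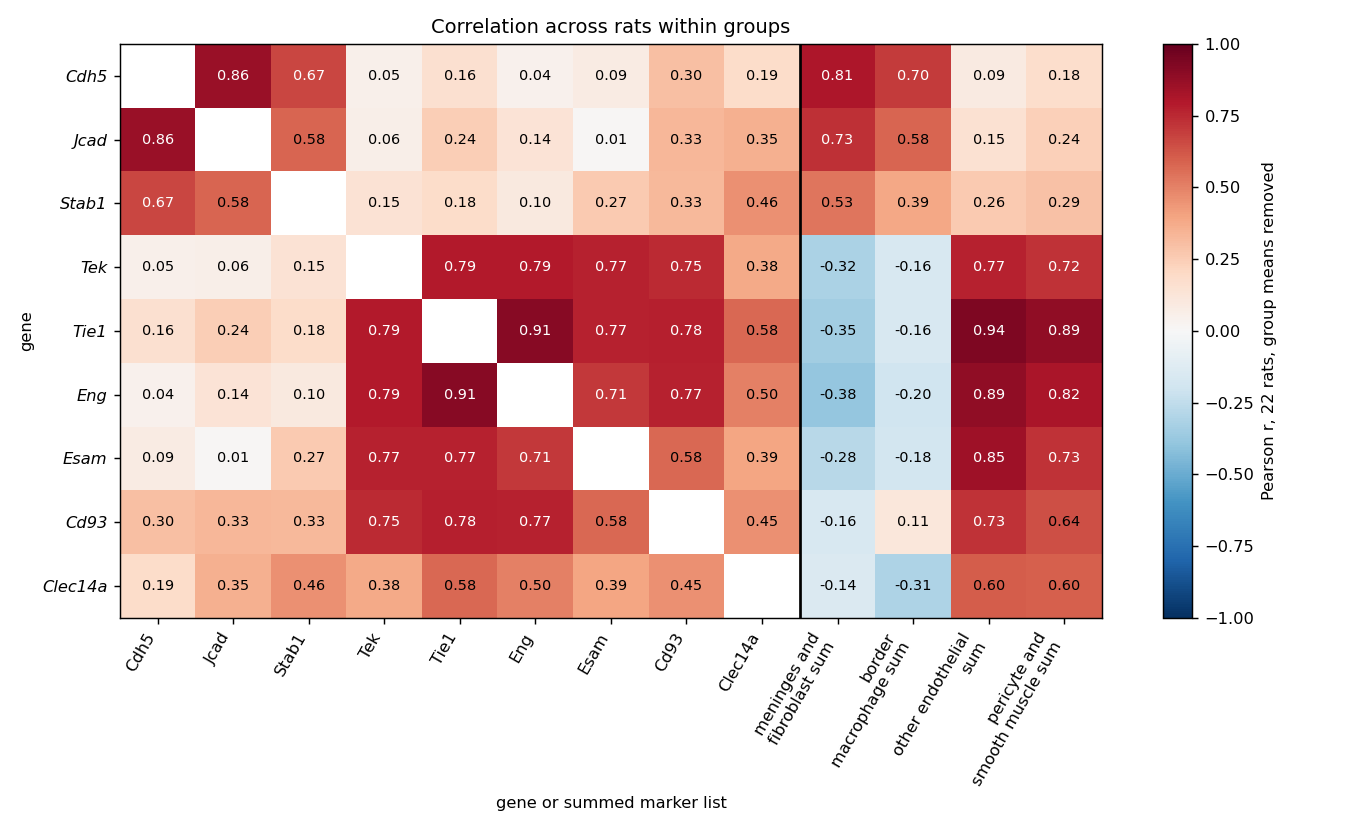
Pearson r across 22 rats, with log2 CPM centred on group means, between the 9 members and with the summed levels of 4 marker lists. Tie1 and Eng had an r of 0.91, and Cdh5 and Tie1 of 0.16.

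The genes of the whole table that varied most like the mean of the 9 members within groups, each member scaled to the same spread, were by r Plekhg2 (0.86), Icam2 (0.83), Gfod2 (0.82), Vwf, Podxl and Prom1 (each 0.81), and Hmcn1, Csrp2, Cald1 and Ocln (each 0.79). Of these 10 genes 7 were also among the 10 by Spearman rank, and 2 among the 10 in shorter libraries only. The nearest gene of each member was looked up after the group values had been seen. It was Ahnak for Cdh5 (0.88), Cavin1 for Jcad (0.89), Adgrf5 for Tie1 (0.96), Ptprb for Eng (0.91) and Fgd5 for Tek (0.86). Rgs5 was nearest to Esam (0.84), Dennd6b to Cd93 (0.81), Hjurp to Stab1 (0.80) and Icam2 to Clec14a (0.78).

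Relations of members to summed marker levels were added after the group values had been seen, with adjustment over the 36 relations of 9 members to 4 lists, of which 17 had an adjusted p under 0.05. With the sum of 34 other endothelial genes Tie1 had an r of 0.94 (rho 0.88, p 1e-05, adjusted p 9e-05), which was 0.91 without the 2 farthest rats, 0.94 in shorter and 0.99 in longer libraries. Eng reached 0.89, Esam 0.85, Tek 0.77, Cd93 0.73 and Clec14a 0.60, each with an adjusted p under 0.05, while Stab1 had 0.26, Jcad 0.15 and Cdh5 0.09. By class these 3 values were 0.14, -0.25 and -0.14 in shorter and 0.50, 0.68 and 0.43 in longer libraries. For pericyte and smooth muscle genes the order was alike, from Tie1 at 0.89, Eng at 0.82 and Esam at 0.73 down to Stab1 at 0.29, Jcad at 0.24 and Cdh5 at 0.18. In shorter and longer libraries these last 3 were 0.18 and 0.57, -0.16 and 0.60, and -0.03 and 0.44. With meninges and fibroblast genes Cdh5 had an r of 0.81 (rho 0.76, p 1e-05, adjusted p 9e-05), and 0.78 without the 2 farthest rats and 0.84 in both classes. Ptgds alone made up 54.8% of this sum, and without it, a setting chosen after seeing the data, r was 0.78 for Cdh5, 0.71 for Jcad and 0.56 for Stab1. Jcad reached 0.73 (rho 0.66, p 0.00089, adjusted p 0.00291) and Stab1 0.53 (rho 0.56, p 0.0161, adjusted p 0.0342) with these genes. The other 6 members lay between -0.38 and -0.14, none with an adjusted p under 0.05, but from -0.64 to -0.18 in shorter and from -0.08 to 0.83 in longer libraries. Cd93 was at -0.59 and 0.83 in the classes, and Tek at -0.64 and 0.53. With border macrophage genes Cdh5 had an r of 0.70 (rho 0.77, p 0.00059, adjusted p 0.00266), Jcad 0.58 (adjusted p 0.00654) and Stab1 0.39 (adjusted p 0.174).

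**Figure D4:**
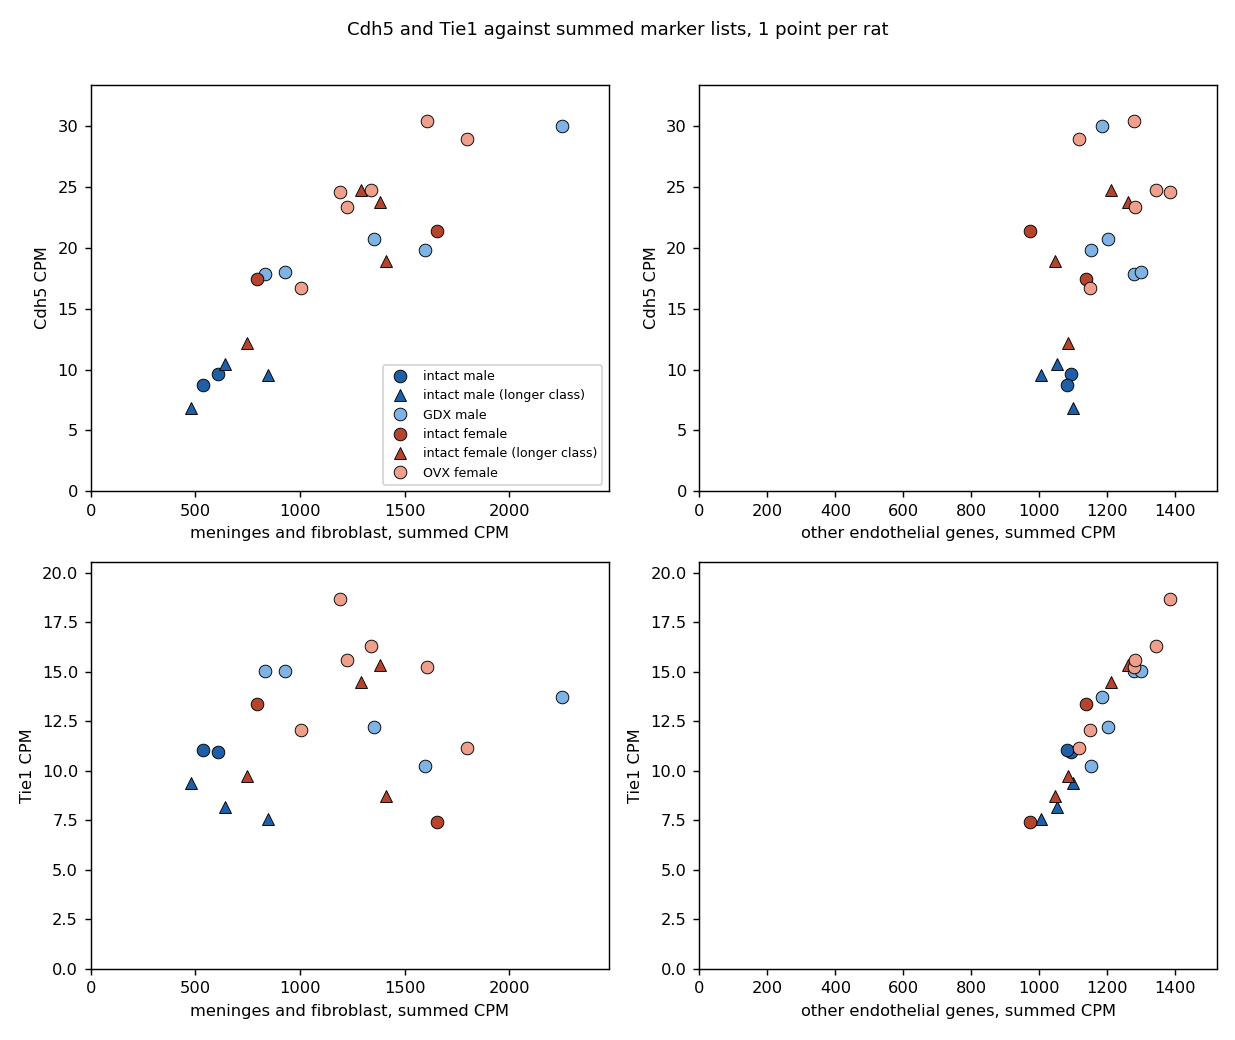
Cdh5 and Tie1 of each rat in CPM against the summed CPM of meninges and fibroblast genes and of other endothelial genes. Within groups Cdh5 had an r of 0.81 with the former and 0.09 with the latter, and Tie1 had 0.94 with the latter.

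Genes that act with the members were looked up in the same fits, where of all genes 6.78% were called higher and 6.58% lower in GDX males. Of 28 partners and ligands 9 were called higher in GDX males and 0 lower, among them Mmrn2, the ligand of Cd93 and Clec14a, at a log2 fold change of 0.72 (SE 0.15). Igfbp7, a further ligand of Cd93, rose by 0.58 (SE 0.08), Ptprb, the phosphatase of Tek and Cdh5, by 0.52 (SE 0.13), and Heg1, a receptor at endothelial junctions, by 0.17 (SE 0.05). In OVX females 0 partners were called by edgeR. Igfbp7 was lower in intact males than in intact females at -0.34 (adjusted p 0.0291), as the only partner called. This was 1 of 28, beside 2.56% of all genes called lower in that comparison. Sparc had the highest CPM of them, and Gdf2 and Bmp10, ligands of Eng, had 0 counts in all 22 libraries. Of 19 transcription factors that regulate endothelial genes 8 were called higher in GDX males, among them Foxc1 at 1.19 (SE 0.17), Klf2 at 0.96 (SE 0.24), Klf4 at 0.92 (SE 0.18) and Ets1 at 0.44 (SE 0.07). Foxc1 was lower in intact males than in intact females, at -0.86 (adjusted p 0.0247). It was the only factor called there, 1 of 18 tested, beside the same 2.56% of all genes. The intact males are the same rats as in the GDX comparison, and the lists were chosen with earlier results known. The adjusted p of Igfbp7 and that of Foxc1 are therefore not independent of their values in GDX males. Epas1 was the factor with the highest CPM.

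In bulk tissue fewer cells of a type and less RNA per cell cannot be told apart, so marker genes of cell types are given beside the members. Their part in the result was not tested, and the same shares of all genes apply to their counts in GDX males. Counts of these lists, and of the partners and factors above, come from fits of both fragment classes without a class term. The settings by fragment class were not tried on them. The other endothelial genes, with the highest CPM for Tspan7, were called higher in GDX males for 16 of 31, their median on the log2 scale being 0.38, and in OVX females for 1 of 31, Kdr at 0.77. Their summed level was 1066 CPM in intact and 1223 in GDX males, and 1119 in intact and 1259 in OVX females. Between intact males and females 0 were called. Of 8 genes of activated and lymphatic endothelium 1 was called higher in GDX males, Flt4 at 0.79. Pericyte and smooth muscle genes were called higher in GDX males for 7 of 16, among them Rgs5 at 0.65, and summed to 322, 394, 341 and 407 CPM in the same order of groups.

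Meninges and fibroblast genes, with the highest CPM for Ptgds, were called higher in GDX males for 18 of 18, their median on the log2 scale being 1.47, and in OVX females for 0 of 18. Their sum averaged 622 CPM in intact and 1393 in GDX males, and 1212 in intact and 1360 in OVX females, and 13 of 18 were called lower in intact males than in intact females, beside 2.56% of all genes. GDX male 5 was the highest GDX rat for this sum, at 2250 CPM, and for Cdh5, Jcad and Stab1. Border macrophage genes were called higher in GDX males for 3 of 6 and lower in intact males than in intact females for 2, and summed to 18.1, 29.5, 28.2 and 29.0 CPM. For both lists the same intact males entered both comparisons, so these counts are not independent of each other. Erythroid genes, which may show blood left after perfusion, were called higher in GDX males for 3 of 3 and summed to 9.35, 30.0, 12.3 and 22.9 CPM.

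Microglia genes were called for 0 of 10 in GDX males and platelet and leukocyte genes for 0 of 3, with Gp1bb at 0 counts in all libraries. Motor neuron genes were called lower in GDX males for 2 of 11, Slc18a3 at -0.43 and Nefh at -0.29, and general neuron genes for 3 of 6. Of 8 astrocyte genes 2 were called higher and 1 lower, and of 8 oligodendrocyte genes 1 was called higher. In OVX females Kdr was the only gene called on any list other than the members, and in the interaction and between GDX males and OVX females 0 genes of any list were called by edgeR.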

How the data were processed

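The values are read counts per gene that the authors deposited, 1 column per rat, and every column was matched to a rat. They are reads without molecular identifiers. According to the paper, total RNA libraries were made with a stranded SMARTer kit, and reads were trimmed with Trimmomatic, mapped with Hisat2 to the rat genome Rnor_6.0 and counted with Subread featureCounts. The submitters' own notes name a different aligner, TopHat2, and the sample labels a different library kit, TruSeq. Strand and multi-mapping settings are not given in the sources used here.

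Comparisons used R 4.3.3 and edgeR 4.0.16 with filterByExpr, TMM, glmQLFit and glmQLFTest, limma 3.58.1 being loaded with it. Calls are at an adjusted p under 0.1. The SE is the size of the log2 fold change divided by the root of the F value. Pairwise comparisons used the rats of their 2 groups, and the interaction all 22. For log2 CPM the prior count was 2. Members and gene lists were chosen with earlier results of these data known. The members are named in every comparison, while for lists the counts, the gene with the highest CPM and some of the genes with the smallest p are named, along with the 10 genes most like the members. Foxf2, Ackr1, Col1a2, Cbr2, Fcrls, Hba1, Hbb-b1 and Gfra1 of the lists were not analysed here. Promoters come from RefSeq on GRCr8, while the counts are on Rnor_6.0.

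Other settings tried were a fit by DESeq2 1.42.0, RLE scaling, all genes or those at 1 CPM, all 22 rats in 1 fit, removal of the top gene (12.3% to 17.9% of counts), the fragment class as a term, shorter libraries only, rat numbers as blocks, and omission of single rats, and, chosen after seeing the data, summed lists without their gene of highest CPM. Within groups no library was a copy of another, the lowest chi-square per degree of freedom between 2 rats of a group being 5.23. The pipeline was tested on simulated data, in which 69.7% of changes of 0.5 on the log2 scale and 91.4% of those of 1 were called in the male comparison, with 10.2% false calls. For the interaction these were 44.1% and 65.3%, with 8.97% false calls. False calls were 12.1% in OVX against intact females, 13.2% in intact males against intact females and 7.98% in GDX males against OVX females, so that they passed the level in 3 of 5 comparisons.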

Additional observations from a re-analysis of the deposited data

Results flagged for a closer look

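In a search of 36 groups of values, 9 members in 4 groups of rats, with Dixon's test at 95%, 1 group held a value far from the rest. Cdh5 was 30.1 CPM in GDX male 5 and 17.8 to 20.7 CPM in the other 4 GDX males. By chance about 1 in 20 groups would be found.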

How the results depend on the processing

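The cause of the differences below was not tested, and fits with fewer libraries have less power. In GDX against intact males 8 members and 1995 of all genes were called. With the fragment class as a term these were 4 and 796, since Tek (log2 fold change 0.37), Tie1 (0.27), Cd93 (0.26) and Clec14a (0.51) were no longer called. With shorter libraries only they were 3 and 440, and Esam (0.67) was also lost. Each rat left out in turn gave 6 to 8 members and 1202 to 2446 genes, the fewest genes, though not the fewest members, without GDX male 5. Eng was called without GDX male 6. The Cd93 call was lost without GDX male 2 or 4 or intact male 1, 3 or 6, and that of Clec14a without GDX male 4 or 6 or intact male 1.

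In OVX against intact females 1 member, Cd93, and 5 genes were called. There were 11 genes with no filter, 9 with all 22 rats in 1 fit, and 2 members and 174 genes by DESeq2. The class term gave 0 members and 3 genes, and shorter libraries only 0 and 7. Rats left out gave 0 to 1 member and 0 to 113 genes.

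In the interaction 0 members and 18 genes were called. There were 33 genes with no filter, 6 with a filter at 1 CPM, 243 by DESeq2, 6 with the class term, 5 with shorter libraries only and 1 to 275 with rats left out, along with 0 to 3 members (Cdh5, Stab1 and Jcad without GDX male 1, and Cdh5 without GDX male 2 or intact female 2). Tek turned to -0.00345 with the class term and to -0.38 with shorter libraries only, and Tie1 to -0.23 in the latter, where Cd93 was at -0.81, Eng at -0.43 and Esam at -0.31. With rats left out Tek ranged from -0.0566 to 0.13, Eng from -0.13 to 0.0774 and Esam from -0.15 to 0.0768.

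In intact males against intact females 3 members and 599 genes were called. With shorter libraries only these were 1 and 34, and Tek (0.29), Tie1 (0.0660), Eng (0.28) and Esam (0.12) changed direction, Cd93 was at 0.64, while Jcad (-0.36) and Stab1 (-0.63) were not called. Rats left out gave 2 to 3 members and 352 to 777 genes, an adjusted p for Stab1 of 0.0398 to 0.175 with its call held only without intact male 3 or intact female 1 or 2, and Clec14a from -0.0900 to 0.11. Between GDX males and OVX females 35 genes were called, 130 by DESeq2, 61 with all 22 rats in 1 fit and 23 to 44 with rats left out, and 0 members throughout. Of the 10 genes most like the members, 2 remained with shorter libraries only. With each summed list lacking its gene of highest CPM, chosen after seeing the data, 17 relations of members to lists were again under 0.05, and none changed direction.

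With the rat number as a block, 6 members and 1274 genes were called in GDX against intact males, 0 and 0 in OVX against intact females and in the interaction, and 2 and 255 in intact males against intact females. No link between rats of different groups with the same number is described. The correlation between rats with the same number lay between -0.115 and 0.063, and 0 rats were most like the rat with their own number.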
